A study of Homo sapiens with 4 samples.

Results

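Potassium channels are membrane proteins that let potassium ions leave or enter a cell along their gradient and so set its membrane potential, its volume and, in excitable cells, the shape of electrical signals. The genes described here are the 83 gene names, of 31907 names counted in the series, that consist of KCN, further letters and a closing number. Names of antisense RNAs, overlapping transcripts and pseudogenes were left out by this rule, which used no measured value. GENCODE 29 on GRCh38 holds 95 such names, and 12 of them, among them KCNJ3 and KCNK4, had no count in any library.

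The values come from 4 RNA-seq libraries of HGC-27, a human gastric cancer cell line. 2 libraries were made from cells given PBS and 2 from cells given recombinant IL-17B (rIL-17B) at 200 ng/ml, and every culture was collected after 48 h. The labels name 1 parental line and no genetic change, and nothing says that the replicates came from separate cultures, so that p values measure the spread between these libraries, which may be technical. In the text, 4 values in a row are PBS replicates 1 and 2 followed by rIL-17B replicates 1 and 2, and CPM is the count divided by the library total, times 1e6.

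The libraries held between 12888029 and 17555879 counts, and 3 counts, the smallest level taken as shown, were between 0.171 and 0.233 CPM. rIL-17B replicate 1 stood apart from the rest. A chi-square statistic of the counts over genes, divided by its degrees of freedom, was 126 between the rIL-17B replicates and 3.45 between the PBS replicates. Between rIL-17B replicate 2 and the PBS replicates it was 5.93 and 7.93. Marker lists moved with rIL-17B replicate 1. The 13 neural and glial markers summed to 706 and 1096 CPM under PBS, to 28.3 CPM in rIL-17B replicate 1 and to 503 CPM in replicate 2. The 7 mesenchymal markers summed to 50658 and 49976 CPM under PBS and to 914 and 42347 CPM under rIL-17B. The 14 epithelial and gastric markers summed to 804, 810, 1829 and 1024 CPM. Most of this sum was KRT8 and KRT18, keratins of simple epithelia, which were high in every library and highest in rIL-17B replicate 1. Other genes of the list went the other way, with 47, 43, 1 and 58 counts for KRT19, 44, 40, 0 and 30 for GATA4 and 241, 147, 23 and 212 for GATA6, whereas the gastric mucosal gene TFF1 had 0 counts throughout and ESRP1 and TFF2 had fewer than 3 counts in each library. The glial factor SOX10 had 0 counts in each, and the 9 monocyte markers summed to between 8.62 and 14.3 CPM. Monocyte markers went both ways, with 62, 72, 119 and 108 counts for CSF1R, 47, 22, 0 and 36 for PTPRC and 36, 43, 0 and 36 for S100A9. The part of these shifts in the results on channel genes was not tested, and each result that rests on rIL-17B replicate 1 is therefore given for both rIL-17B libraries.

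A pore-forming potassium channel subunit carries a short pore loop whose glycine, aromatic, glycine residues line the selectivity filter. Most such subunits carry a single loop and assemble as tetramers, whereas those of the tandem-pore (K2P) family carry a pair of loops and assemble as dimers. Accessory subunits have no pore and change the gating or trafficking of the channels they join. In the longest complete coding sequence of each gene, a search was made for the codons of threonine or serine, any residue, glycine, then tyrosine, phenylalanine or leucine, and glycine. A match was found in 68 of 68 pore-forming genes and in 0 of 15 accessory genes, and in 6.07% of 19659 protein-coding genes. Of the 10 K2P genes, 8 had 2 matches. So did 2 voltage-gated pore genes, KCNH2 and KCNH4, and the other pore-forming genes had 1, among them KCNK7 and KCNK15 of the K2P family. In KCNH2 and KCNH4 the first match held leucine and the second phenylalanine. A count of matches is therefore not a count of loops. The coding DNA of the filter is shown for channel genes that the comparisons below turn on, as 45 bases from the GENCODE 29 transcript with the codons of the glycine, aromatic or leucine, and glycine residues in capitals.
KCNMA1: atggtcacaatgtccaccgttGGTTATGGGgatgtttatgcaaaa
KCNN4: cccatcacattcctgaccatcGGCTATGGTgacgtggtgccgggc
KCNT2: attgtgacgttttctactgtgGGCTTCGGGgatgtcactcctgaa
KCNA2: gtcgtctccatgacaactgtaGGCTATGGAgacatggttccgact
KCNJ12: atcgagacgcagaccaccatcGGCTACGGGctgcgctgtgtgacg
KCNK1 first loop: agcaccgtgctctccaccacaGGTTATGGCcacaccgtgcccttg
KCNK1 second loop: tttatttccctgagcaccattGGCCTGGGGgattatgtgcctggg
KCNK2 first loop: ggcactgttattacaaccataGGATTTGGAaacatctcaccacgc
KCNK2 second loop: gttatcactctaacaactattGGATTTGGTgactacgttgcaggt

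On GRCh38 these stretches lie at chr10:77110221-77110265 (minus strand) in KCNMA1, chr19:43772042-43772086 (minus) in KCNN4, chr1:196429643-196429687 (minus) in KCNT2, chr1:110603634-110603678 (minus) in KCNA2 and chr17:21415754-21415798 (plus) in KCNJ12. In KCNK1 (plus strand) the first loop is split by an intron and runs from 233614505 to 233666617 on chromosome 1, and the second lies within 1 exon at chr1:233666897-233666941. Both loops of KCNK2 (plus strand) are split by an intron, from 215124729 to 215169221 and from 215172141 to 215194954 on the same chromosome. The triplets read tyrosine in KCNMA1, KCNN4, KCNA2 and KCNJ12, phenylalanine in KCNT2 and in both loops of KCNK2, and tyrosine then leucine in KCNK1. KCNJ18 has the same 45 bases as KCNJ12, at chr17:21703198-21703242 (plus). Over their 1302 coding bases these inward rectifier genes differ at 13 positions (99.0% identity), with an identical run of 293 bases, so that reads could be exchanged between them and both counts are uncertain.

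HGC-27 libraries contained a broad but sparse set of channel transcripts. At least 3 counts were found for 57 and 59 members with PBS and for 43 and 61 with rIL-17B, and 36 members reached this level in all 4 libraries. 13 members stayed under 3 counts everywhere. All members together took 0.042%, 0.0423%, 0.038% and 0.0412% of the counts. Their summed level was 419.6 and 423.5 CPM under PBS and 379.9 and 411.5 CPM under rIL-17B, so the sums of the groups did not overlap. The gap between the nearest libraries, PBS replicate 1 and rIL-17B replicate 2, was smaller than that between the rIL-17B libraries. For sums like these, the smallest two-sided p of an exact permutation test with 2 libraries a group is 0.333, so none was run. In bulk RNA, fewer cells that express a gene and less of its RNA per cell cannot be told apart.

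A few genes made up most of this total. In both PBS libraries the 6 members with the most counts were KCNE4, KCNAB2, KCNMA1, KCNK1, KCNK2 and KCNN4, which held 59.1% and 56.5% of all channel counts. The same 6 led rIL-17B replicate 2, with 58.6%. In rIL-17B replicate 1 the leading 6 were KCNAB2, KCNK1, KCNN4, KCNH2, KCNJ18 and KCNIP3, with 75.9%. KCNE4, KCNMA1 and KCNK2 were thus replaced there by KCNH2, KCNJ18 and KCNIP3. By class, the summed CPM of calcium- or sodium-activated pore genes was 86.3 and 78.5 with PBS and 41.05 and 75.6 with rIL-17B. The inward rectifiers summed to 39.55, 42.5, 56.8 and 44.4 CPM, both rIL-17B libraries lying above both PBS libraries. This rise came from KCNJ12 (3.65, 3.88, 9.37 and 6.66 CPM) and KCNJ18 (12.95, 15.2, 30.3 and 16.8 CPM), whose counts are uncertain. The other inward rectifiers together did not rise. The K2P genes (98.8, 93.65, 92.3 and 101 CPM) and the accessory subunits of voltage-gated channels (124, 130.3, 127 and 123 CPM) had nearly level sums. By counts, the leading gene of these accessory subunits was KCNE4 in both PBS libraries and KCNAB2 in both rIL-17B libraries.

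**Figure D1:**
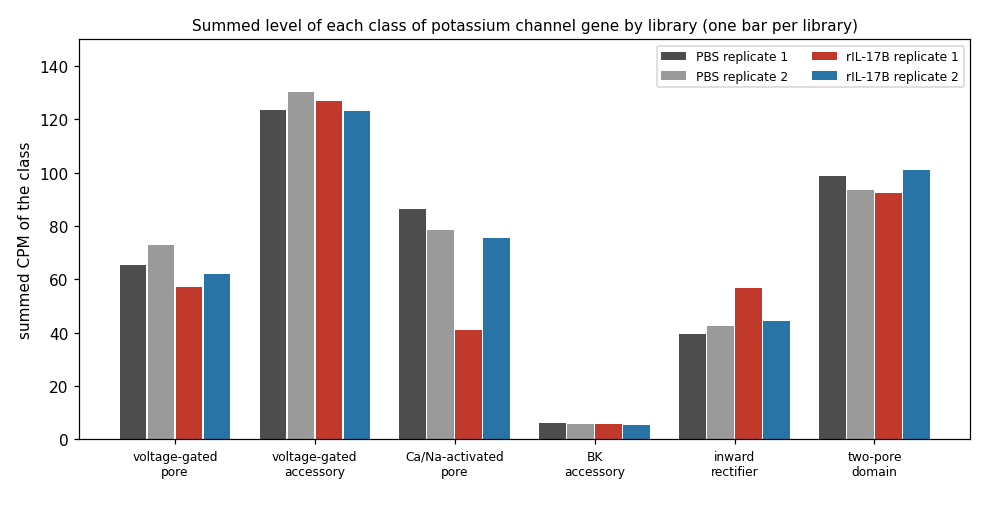
Summed CPM (vertical axis, from 0) of the members of each of 6 classes, with 1 bar for each library and no error bars. The bar of rIL-17B replicate 1 is low for the calcium- or sodium-activated pore genes (41.05 CPM) and high for the inward rectifiers (56.8 CPM), and the other bars of these classes lie close together.

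Ranks by counts depend on gene length. Levels of different genes were otherwise compared per length, as CPM per kb of annotated exon, all exons of a gene joined. This measure understates genes with many alternative exons, such as KCNMA1, whose joined exons span 35.6 kb. In the PBS libraries the highest means were 14.0 CPM per kb for KCNE4, 10.01 for KCNK1, 9.415 for KCNK2, 7.11 for KCNN4, 6.41 for KCNJ18, 4.88 for KCNAB2 and 3.295 for KCNH2. KCNK1 lay above KCNK2 within each PBS library. Across libraries, KCNK1 in PBS replicate 2 (9.413) was below KCNK2 in PBS replicate 1 (9.841). The order was thus the same in both libraries while the ranges overlapped, and the difference was not tested. The same held for KCNN4 and KCNJ18. The plot of levels by library shows that KCNE4 and KCNK2 left the top of this order in rIL-17B replicate 1 alone.

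**Figure D2:**
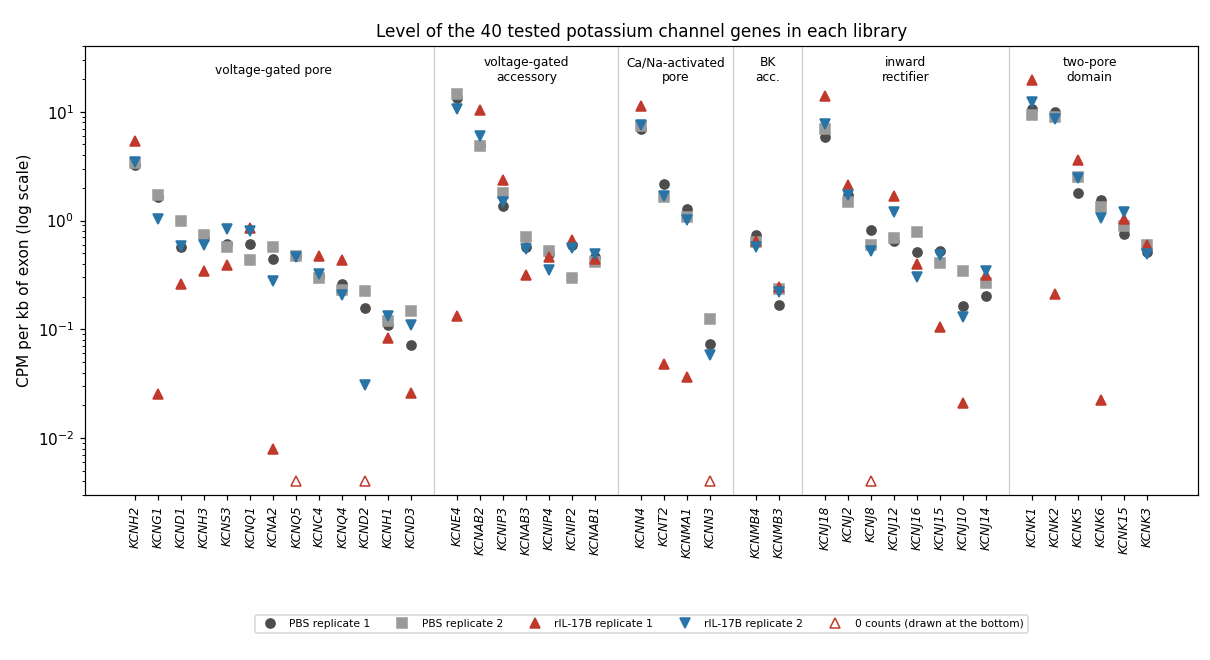
CPM per kb of exon (log axis) of the 40 members that passed the filter on low counts, by class and by falling PBS mean, with 1 symbol for each library and open triangles for 0 counts. Red triangles of rIL-17B replicate 1 lie far below the rest for KCNE4, KCNK2, KCNMA1, KCNT2, KCNG1, KCNA2 and KCNK6, and symbols of the other 3 libraries lie together.

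rIL-17B was compared with PBS by edgeR's quasi-likelihood test over 16361 genes with Benjamini-Hochberg adjustment. 40 of the 83 members passed the filter on low counts. For 10 of these (KCNA2, KCND2, KCNE4, KCNG1, KCNJ8, KCNJ10, KCNK6, KCNN3, KCNQ5 and KCNT2), only the PBS group had both libraries above the filter's CPM limit. KCND2 reached that limit in no rIL-17B library and so was tested through PBS alone. The 43 members that did not pass had at most 21 counts in a library. None of the 40 reached an adjusted p under 0.05 (0% of all genes tested did), and DESeq2 also called 0. In edgeR, 2 members had an unadjusted p under 0.05, against 1.38% of all genes, and DESeq2 gave 3 of 83, against 1.71%. The median log2 fold change of the 40 members was -0.18, with 18 above 0 and 22 below, and that of all genes tested was -0.03. In 10 members both rIL-17B libraries lay above both PBS libraries (25%, against 28.6% of all genes tested), and in 16 both lay below (40%, against 30.3%). The members are described below by class with each library's value. Exons of KCNMA1, KCNG1, KCNQ1, KCNQ5, KCNJ2, KCNJ8, KCNJ16, KCNK15, KCNH3, KCNAB1 and KCNAB2 overlap a gene on the other strand, so that their counts are uncertain where strand was not used. Those of KCNAB3, KCNMB3, KCNJ14 and KCNJ15 overlap a gene on the same strand and are uncertain in either case.

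Among inward rectifiers, which pass potassium more readily into the cell and hold the resting potential, KCNJ12 and KCNJ18 had higher values in both rIL-17B libraries than in either PBS library, with no adjusted p under 0.05. Both belong to the strongly rectifying group. KCNJ12 (chromosome 17, 21376197 to 21419872) had 3.65 and 3.88 CPM under PBS and 9.37 and 6.66 CPM under rIL-17B. Both treated libraries were above both controls, with a log2 fold change of 1.01 (standard error, SE, 0.27, unadjusted p = 0.0232, adjusted p = 0.661 in edgeR's test). Its near copy KCNJ18 (chromosome 17, 21692523 to 21704612) had 12.95, 15.2, 30.3 and 16.8 CPM, with a log2 fold change of 0.65 (SE 0.31). KCNJ2, the best known channel of this group, had 9.49, 8.22, 11.8 and 9.57 CPM, and its libraries overlapped after TMM scaling (log2 fold change 0.19, SE 0.21). rIL-17B replicate 1 was the highest. KCNJ14 had 14 and 15 counts under PBS and 20 and 26 under rIL-17B, with a log2 fold change of 0.41.

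Other inward rectifiers had lower values. KCNJ16, which forms mixed channels with KCNJ10, had 3.27 and 4.97 CPM under PBS and 2.53 and 1.94 CPM under rIL-17B. Here rIL-17B replicate 2 was the lowest library, and the groups did not overlap (log2 fold change -0.96, SE 0.36, adjusted p = 0.661 in edgeR's test). KCNJ10, a channel known from glial cells, had 17 and 29 counts under PBS and 2 and 15 counts under rIL-17B, a log2 fold change of -1.73 (SE 1.02). KCNJ8, the pore of a channel gated by ATP, had 32, 19, 0 and 23 counts. rIL-17B replicate 1 was thus at least 8.63-fold lower than the pooled PBS libraries at a floor of 3 counts, and replicate 2 was only slightly lower than PBS. The sulfonylurea receptor gene ABCC9, whose product joins the KCNJ8 pore, was looked up after the values of KCNJ8 were seen and had 55, 28, 0 and 59 counts. KCNJ15 had 5.41, 4.19, 1.10 and 4.96 CPM and was low in the first rIL-17B library only.

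K2P channels give cells a background potassium leak that is open at rest. KCNK1 (chromosome 1, 233614004 to 233672512) was among the highest channel genes and had 38.5 and 34.1 CPM under PBS and 70.9 and 44.5 CPM under rIL-17B. Both rIL-17B libraries were above both PBS libraries, by 1.94-fold and 1.22-fold over the pooled PBS libraries, with a log2 fold change of 0.58 (SE 0.23, unadjusted p = 0.0713, adjusted p = 0.661 in edgeR's test). KCNK5, a channel sensitive to alkaline pH, had 6.73, 9.39, 13.6 and 9.285 CPM (log2 fold change 0.43, SE 0.30), and rIL-17B replicate 2 lay within the range of PBS. KCNK15 had 1.95, 2.33, 2.67 and 3.13 CPM, and KCNK3 stayed between 3.08 and 3.72 CPM.

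KCNK2 and KCNK6 had near-zero values in rIL-17B replicate 1. KCNK2 (chromosome 1, 215005775 to 215237093), a channel opened by membrane stretch and lipids, had 38.5 and 35.1 CPM under PBS and 0.821 and 33.3 CPM under rIL-17B. In counts these were 612, 453, 12 and 585, so that rIL-17B replicate 1 was 45.05-fold below the pooled PBS libraries (95% exact interval of the counts 25.7 to 87.5, counting error only). The fitted log2 fold change was -1.11 with an SE of 1.63. KCNK6, a relative of KCNK1, had 152, 105, 2 and 115 counts, a 65.2-fold lower level in rIL-17B replicate 1 (interval 17.9 to 542). In rIL-17B replicate 2 KCNK6 had 6.55 CPM, against 9.56 and 8.15 CPM under PBS. Within the K2P family, then, rIL-17B replicate 1 held more KCNK1 and KCNK5 and almost no KCNK2 and KCNK6 transcripts.

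Channels opened by intracellular calcium or sodium were split in the same way. KCNMA1 (chromosome 10, 76869601 to 77638369) encodes the pore of the large-conductance calcium-activated (BK) channel and had 45.6 and 38.8 CPM under PBS and 1.30 and 36.2 CPM under rIL-17B. With 725, 500, 19 and 636 counts, rIL-17B replicate 1 was 32.7-fold lower than the pooled PBS libraries (interval 20.9 to 54.55), and the fitted log2 fold change was -1.18 (SE 1.52). KCNT2, a sodium-activated channel, had 15.3, 11.6, 0.342 and 11.9 CPM, or 5 counts in rIL-17B replicate 1 against 244 and 150 under PBS. KCNN3, a small-conductance calcium-activated channel, had 16, 22, 0 and 14 counts.
KCNN4, the intermediate-conductance calcium-activated channel known from epithelia and lymphocytes, was the 1 tested gene of this class with a positive fold change. It had 23.45 and 24.98 CPM under PBS and 38.1 and 25.5 CPM under rIL-17B (log2 fold change 0.31, SE 0.20, adjusted p = 0.661 in edgeR's test). The groups did not overlap, but rIL-17B replicate 2 exceeded the higher PBS library by less than the PBS libraries differed.
Both tested accessory BK subunits had similar levels in the 4 libraries. KCNMB4 had 3.58, 3.10, 3.15 and 2.79 CPM and KCNMB3 had 1.51, 2.09, 2.19 and 1.99 CPM, whereas the pore gene KCNMA1 was 32.7-fold lower in rIL-17B replicate 1 than in PBS. KCNMB1, a subunit of smooth muscle, had 13, 4, 0 and 7 counts and did not pass the filter on low counts with all 4 libraries. In the fit of rIL-17B replicate 1 alone against PBS, described below, it passed only through PBS and had a log2 fold change of -6.14. KCNMB2 had at most 4 counts.

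Voltage-gated channels open on depolarization, and their genes form the largest class with 35 members, of which 13 were tested. KCNH2 (chromosome 7, 150944961 to 150978315), which encodes the hERG channel of cardiac repolarization, had the highest level per kb of this class. It had 18.9 and 19.9 CPM under PBS and 31.3 and 20.3 CPM under rIL-17B (log2 fold change 0.33, SE 0.22). KCNQ1, a channel of heart and epithelia, had 2.70, 1.94, 3.83 and 3.53 CPM, and both treated libraries were above both controls by a like amount (log2 fold change 0.59, SE 0.33, adjusted p = 0.661 in edgeR's test). KCNQ1 exons overlap the antisense RNA KCNQ1OT1, and strand use in the counting is not known. KCNC4, a fast-gating channel, had 7.80, 7.37, 11.8 and 8.09 CPM.

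Other voltage-gated genes were nearly absent from rIL-17B replicate 1. KCNA2, an axonal channel, had 122, 127, 2 and 85 counts, a 63.2-fold lower level than in the pooled PBS libraries (interval 17.3 to 525). KCNG1, a silent subunit that works only in mixed channels, had 141, 119, 2 and 98 counts, a 66.0-fold lower level (interval 18.1 to 548). For both genes, rIL-17B replicate 2 was below both PBS libraries as well, at 4.84 against 7.67 and 9.85 CPM for KCNA2 and at 5.58 against 8.865 and 9.23 CPM for KCNG1. KCNQ5, which carries a subthreshold current in neurons, had 57, 46, 0 and 62 counts. rIL-17B replicate 1 was at least 17.4-fold lower and rIL-17B replicate 2 matched PBS (3.53 against 3.58 and 3.57 CPM). With KCNK6, these were the 4 members (10%, against 4.71% of all genes tested) that had at most 3 counts in rIL-17B replicate 1 and at least 30 in every other library. No member had this pattern in another library.

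KCND2 and KCND1 encode channels of the transient A-type current. KCND2 was the other member with an unadjusted p under 0.05. It rested on few reads, with 14 and 16 counts under PBS and 0 and 3 counts under rIL-17B (log2 fold change -3.47, SE 1.14, unadjusted p = 0.0428, adjusted p = 0.661 in edgeR's test). It entered the test through the PBS libraries alone, where it was high, so its fold and p are a description. With 0.5 CPM added to each value it was also the 1 tested member at least 2-fold below the PBS mean in rIL-17B replicate 2, and with 0.1 CPM added there were 2. KCND1 had 3.33, 5.74, 1.505 and 3.42 CPM (log2 fold change -0.92, SE 0.62) and its groups overlapped. KCNH3, a brain channel, had 3.02 and 3.18 CPM under PBS and 1.505 and 2.56 CPM under rIL-17B.

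The accessory subunits of voltage-gated channels held both the member with the most counts under PBS and the one with the most under rIL-17B. KCNE4 (chromosome 2, 223051814 to 223198399), a small membrane protein that damps several voltage-gated channels, had 55.4 and 59.9 CPM under PBS and 0.547 and 44.0 CPM under rIL-17B. In counts these were 881, 772, 8 and 773, and rIL-17B replicate 1 was 105-fold lower than the pooled PBS libraries (interval 53.1 to 243). Both rIL-17B libraries were below both PBS libraries, and the log2 fold change of -1.38 had an SE of 1.80. With the replicate number as a block it was -3.23, still with no adjusted p under 0.05, and the folds of KCNA2, KCNG1, KCNK2, KCNK6, KCNMA1, KCNQ5 and KCNT2 also grew by over 1.5 times on the log2 scale. KCNAB2 (chromosome 1, 5991466 to 6101193), a cytoplasmic beta subunit related to aldo-keto reductases, had 46.7 and 46.4 CPM under PBS and 99.0 and 57.4 CPM under rIL-17B. Its rIL-17B libraries were 2.13-fold and 1.23-fold above the pooled PBS libraries, with a log2 fold change of 0.66 (SE 0.26, unadjusted p = 0.0692, adjusted p = 0.661 in edgeR's test). KCNAB2 exons overlap NPHP4 on the other strand. KCNIP3, a calcium-binding partner of A-type channels, had 10.7, 14.0, 18.6 and 11.6 CPM and was high in the first rIL-17B library only. KCNAB3, another beta subunit, had 42, 42, 21 and 44 counts, and KCNAB1 stayed between 2.87 and 3.36 CPM.

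Each rIL-17B library was also set against the PBS mean on its own, which compares libraries and not conditions. With 0.5 CPM added to each value, rIL-17B replicate 1 was at least 2-fold below the PBS mean for 15 of the 40 tested members (37.5%, against 19.9% of all genes tested) and at least 2-fold above it for 1, KCNJ12 (2.5%, against 0.996%). rIL-17B replicate 2 was 2-fold below for 1 member (2.5%, against 0.575%) and 2-fold above for 0 (0%, against 0.0672%). The 2 PBS libraries did not differ 2-fold for any of the 40, and among all genes tested they did so for only 110 of 16361. The 15 low members were 6 voltage-gated pore genes, 3 activated by calcium or sodium, 3 inward rectifiers, 2 K2P genes and KCNE4. The median log2 ratio over the 40 members was -0.29 in replicate 1 and -0.05 in replicate 2, against -0.04 and -0.01 over all genes tested. For some of these members only the PBS group had both libraries above the filter's limit, so their share is a description.

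**Figure D3:**
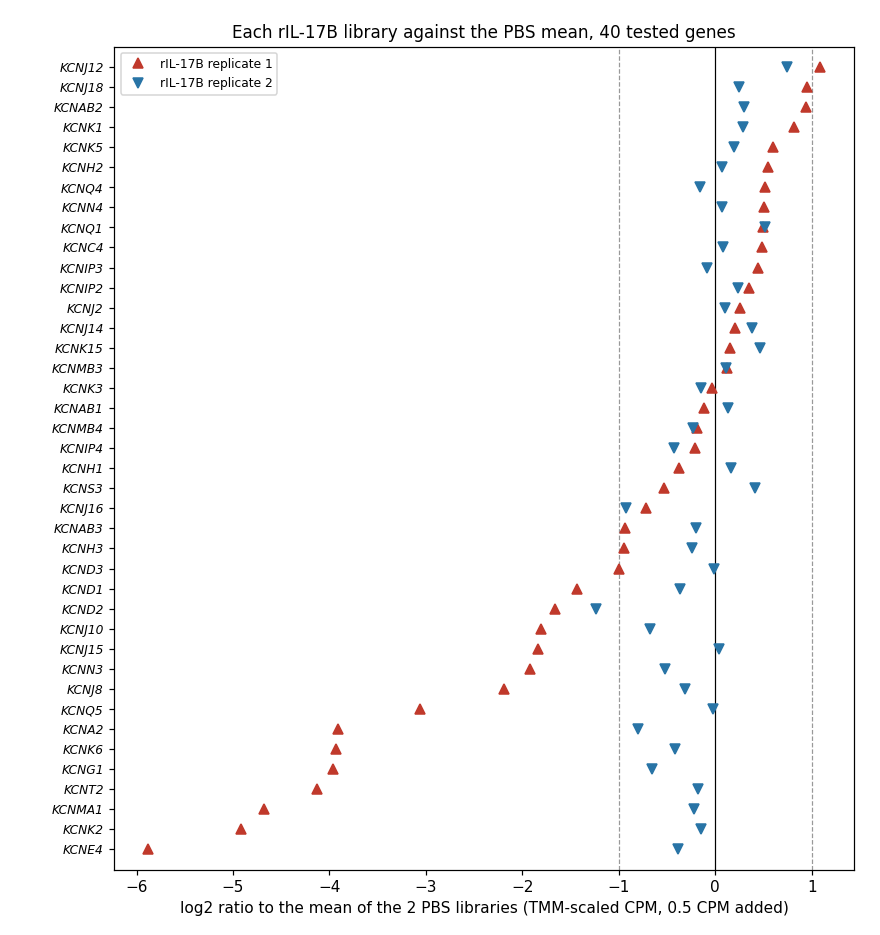
log2 ratio of each rIL-17B library to the mean of the PBS libraries (horizontal axis, TMM-scaled CPM with 0.5 CPM added) for the 40 tested members, ordered by replicate 1, with dashed lines at 2-fold. Ratios of replicate 1 run from -5.88 for KCNE4 to 1.085 for KCNJ12, and those of replicate 2 stay within the dashed lines except for KCND2 (-1.23).

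Leaving out 1 rIL-17B library changed the calls. A fit of a single rIL-17B library against both PBS libraries assumes that the lone library varies like the PBS libraries, and compares libraries. Its filter also let some members in through PBS alone, so the shares of members called are a description. With rIL-17B replicate 1 alone, 28 of 43 tested members passed an adjusted p under 0.05 in edgeR's test (65.1%, against 55.1% of all genes tested). It called 9 members higher and 19 lower (20.9% and 44.2%, against 23.2% and 31.9%). The 9 higher members were KCNAB2, KCNC4, KCNH2, KCNIP3, KCNJ12, KCNJ18, KCNK1, KCNK5 and KCNN4. A fit of rIL-17B replicate 2 alone called 2 of 44 members (4.55%, against 2.95%), 0 of them higher and 2 lower (background 0.643% and 2.3%). These were KCNE4, with a log2 fold change of -0.39 (adjusted p = 0.0183), and KCNA2, with -0.85 (adjusted p = 0.0185), both from edgeR's test. In that fit KCNMA1 had a log2 fold change of -0.23 (adjusted p = 0.362) and KCNK2 of -0.15 (adjusted p = 0.649), where the fit of replicate 1 gave -5.15 and -5.61.

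Genes whose products work beside potassium channels were taken from 10 lists, chosen with earlier results known, of 64 genes in all, and 36 were tested. None passed an adjusted p under 0.05 in edgeR's test, and none had an unadjusted p under 0.05. Of the 36, 12 had a log2 fold change above 0 and 24 below, with a median of -0.38, against -0.03 over all genes tested. In rIL-17B replicate 1, 15 were at least 2-fold below the PBS mean, against 19.9% of all genes tested. In rIL-17B replicate 2, 1 of the 36 was 2-fold apart from the PBS mean. Of all genes tested, 0.575% were 2-fold below it there and 0.0672% above. Among the genes of the sodium pump, which builds the potassium gradient, ATP1B3 had 151, 145, 208 and 159 CPM and was highest in rIL-17B replicate 1. Calmodulin is the calcium sensor of small-conductance channels. CALM2 had 342, 305, 404 and 354 CPM and CALM3 had 172, 170, 115 and 161 CPM, so that in rIL-17B replicate 1 the former was the highest of the libraries and the latter the lowest.

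Many genes of channels for the ions that depolarize cells were also low in rIL-17B replicate 1. Of 8 tested genes for voltage-gated sodium channel subunits, 6 were at least 2-fold below the PBS mean in rIL-17B replicate 1, as were 4 of 5 tested calcium channel pore genes, against 19.9% of all genes tested. In rIL-17B replicate 2, 0 of these sodium channel genes and 1 of these calcium channel genes were 2-fold apart from the PBS mean. The shares over all genes tested were 0.575% below and 0.0672% above. The sodium channel gene SCN1A went the other way, with 25.2, 26.0, 55.4 and 32.4 CPM. Pacemaker channel genes HCN2 (21.0, 22.3, 31.8 and 19.3 CPM) and HCN3 (10.3, 9.85, 13.9 and 10.8 CPM) were also highest in rIL-17B replicate 1. REST, which silences neuronal genes outside the nervous system, had 45.9, 45.1, 49.1 and 43.9 CPM and a log2 fold change of -0.04 (SE 0.10, adjusted p = 0.815 in edgeR's test).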

How the data were processed

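RNA was taken from HGC-27 cells given PBS or rIL-17B, 2 libraries each, and sequenced after Smart-seq2 (oligo-dT priming and PCR). The authors deposited counts, whole reads per gene name, not normalized and with genes at 0 left out. The submitters' processing notes name HISAT2 2.1.0, Bowtie2 2.2.3, TopHat2, HTSeq 0.6.0 and hg38 without their roles, and strand use and annotation are not given in the sources used here. Of the 40 tested members, 18 have exons that overlap another gene. The labels' library text speaks of monocytes, whereas the labels otherwise give HGC-27.

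Repeated names held the same count and were used once, and between 22 and 25 names per library that had become numbers were dropped. A name missing from a library was given 0 counts. CPM is the count divided by the library total, times 1e6. edgeR 4.0.16 in R 4.3.3 was used with TMM scaling and filterByExpr. Its quasi-likelihood F test covered 16361 genes, p values were adjusted by Benjamini-Hochberg, calls were made under 0.05, and the standard error is the log2 fold change divided by the square root of F. DESeq2 1.42.0, upper-quartile scaling, other filters, a replicate block and leaving out each library were alternatives. Coordinates and coding sequences come from GENCODE 29, and figures were drawn with Python 3.11.15.

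Members and lists were chosen with earlier results of these data known. Named genes were the 4 highest per kb in each class, those at an unadjusted p under 0.05, the 5 largest rises and falls without overlap of the groups, and those with at most 3 counts in 1 library and at least 30 in the rest. These rules gave 26 genes. Other members of the classes, such as KCNJ8, KCNJ14, KCNJ15, KCNK15, KCNC4 and KCNH3, were chosen after their values were seen. Partner genes were the 5 with the highest mean CPM, of which some are not reported here, and REST was also chosen after its values were seen. Totals were 15904594 and 12888029 counts with PBS and 14615341 and 17555879 with rIL-17B, and intervals and floors cover counting error only, because PCR copies were counted.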

Additional observations from a re-analysis of the deposited data

How the results depend on the processing

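In edgeR, 0 members passed the adjusted threshold with the replicate block, upper-quartile scaling, no filter on low counts or at least 10 counts in every library, and DESeq2 also gave 0. The smallest adjusted p of any gene under these settings lay between 0.551 and 0.993. Leaving out 1 library gave between 0 and 28 members, 0 without either PBS library, 2 without rIL-17B replicate 1 and 28 without rIL-17B replicate 2. At an unadjusted p under 0.05 there were 2 members, 1 with the replicate block (KCNK1), 5 without the filter and between 0 and 30 with 1 library left out, 10 without rIL-17B replicate 1 and 30 without rIL-17B replicate 2. Of all genes tested, 1.38% passed this threshold, 1.06% with the block, 2.75% without the filter, 13.7% without rIL-17B replicate 1 and 58.8% without rIL-17B replicate 2. The block moved the log2 fold changes of 8 of the 26 named genes by over 1.5 times and turned none. The median log2 fold change was -0.18, 0.15 with at least 10 counts in every library, where 29 members are tested, and between -0.71 and -0.10 with 1 library left out. With 0.1 CPM added in place of 0.5, 2 members were 2-fold apart in rIL-17B replicate 2 instead of 1. Of the named genes, KCNMB3 reversed to -0.066 without PBS replicate 1 (range 0.387 down to this value with 1 library left out) and KCNIP3 to -0.080 without rIL-17B replicate 1 (range up to 0.467). The causes were not tested. By CPM of the library total, an alternative chosen after seeing the data, 11 members were higher and 15 lower without overlap, against 10 and 16 after TMM. Same-numbered libraries share only a number (correlation of their deviations 0.079 across genes). Genes under 3 counts cannot be told from absent ones at this depth.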

Other observations

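Some names share the KCN stem but fall outside the rule. KCNQ1OT1, the antisense RNA of the KCNQ1 locus, had 170 and 180 counts under PBS and 139 and 194 counts under rIL-17B (log2 fold change -0.33, SE 0.26, adjusted p = 0.662 in edgeR's test). KCNMB2-AS1 had 20, 20, 18 and 15 counts, and its sense partner KCNMB2 had at most 4. The antisense RNA of KCNMA1, KCNMA1-AS1, had 3, 4, 0 and 6 counts, with its only 0 in rIL-17B replicate 1.

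Members below the filter were looked over after their values were seen. KCNU1, a relative of KCNMA1 known from sperm, had 3 and 2 counts under PBS and 9 and 11 with rIL-17B. KCNG3 had 1 and 3 against 9 and 9 counts, and KCNK12 had 1 and 0 against 5 and 5. KCNC2 was counted in rIL-17B replicate 1 alone (6 counts) and KCNK13 in PBS replicate 2 alone (8 counts). Counts this low were not tested between the groups in the reported fit.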
